A study of Caenorhabditis elegans with 6 samples.

Results

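Patched proteins are multipass membrane proteins of the resistance-nodulation-division permease superfamily that carry a sterol-sensing domain. In flies and mammals Patched is the receptor for Hedgehog and holds the membrane protein Smoothened inactive. Caenorhabditis elegans has no Smoothened orthologue and no canonical Hedgehog, but it carries an expanded family of patched-related (ptr) genes together with many hedgehog-related ligand genes. Many genes of both families are expressed in the epidermis, and many are needed for growth, cuticle formation or moulting.

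The 10 genes described are ptc-1, ptc-3, ptr-2, ptr-4, ptr-5, ptr-11, ptr-15, ptr-16, ptr-18 and ptr-23, out of 17118 genes that could be named on the array. They were taken by gene symbol, and all 10 were found, on 18 of 22548 probe sets. A probe set is a group of oligonucleotides read as 1 value, which may match more than 1 transcript. Only probe sets annotated to a single gene were used, and whether they also bind other transcripts was not tested. The list of symbols was chosen by family and by role in epidermis and moulting, with the log2 differences between the genotypes on these same arrays already in view. Those differences are therefore a description, and the p values printed beside them support nothing about the choice.

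RNA came from whole worms of mixed stages, in 2 groups of 3 arrays. One group was the tdp-1(ok803) loss-of-function mutant, outcrossed, and the other was wild-type N2. No treatment was given to either, and the mutant was represented by 1 allele. TDP-1 is the C. elegans counterpart of TDP-43, an RNA-binding protein, and the comparison asked which transcripts change in abundance without it. Values are log2 expression per probe set, so a difference of 1 is a doubling, and each difference is the tdp-1(ok803) mean minus that of wild type. In RNA from whole worms of mixed stages, fewer cells of a type, less RNA per cell and a different share of moulting larvae cannot be told apart.

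The labels were checked on tdp-1 itself, whose brighter probe set averaged 5.01 ± 0.40 in tdp-1(ok803) and 8.98 ± 0.21 in wild type (SD, n = 3 each). Array medians lay between 5.41 and 5.52, and 3 arrays per genotype limit the precision of every difference. The arrays also differed in a sign of RNA integrity and labelling, how far the 3' probe sets for the control transcripts of actin and Gapdh exceeded the 5' ones. It averaged 3.80 ± 0.64 in the mutant and 3.11 ± 0.88 in wild type on the log2 scale (SD, n = 3 each, two-sided exact permutation p = 0.3). It was smaller on mutant replicate 2 and wild-type replicates 1 and 3, at 2.52 to 3.09, and larger on the other 3 arrays, at 4.01 to 4.31. Wild-type replicate 2 stood with mutant replicates 1 and 3 in this measure, and the differences of the leading genes are also given with this measure as a covariate and within each set of 3 arrays. Each set holds a single array of 1 genotype (mutant replicate 2 in the smaller, wild-type replicate 2 in the larger), so values within them are descriptions with no test.

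Most of the patched and patched-related genes had a lower mean in tdp-1(ok803), with the largest difference for ptr-4, followed by ptc-3 and ptr-18. With the brightest probe set standing for each gene, 9 of the 10 genes had a lower mean in the mutant, where 47% of all genes did. The differences ran from -1.02 for ptr-4 to 0.19 for ptr-5, with a median of -0.25 beside 0.013 for all genes. None of the 10 passed an adjusted p of 0.05 in limma, a linear model with moderated variances fitted across all probe sets, where 0.0643% of genes did. At an unadjusted p under 0.05, 4 of the 10 were lower (ptr-4, ptc-3, ptr-15 and ptr-18), where 3.2% of all genes were, and 0 were higher, where 4.05% were. That count of 4 was 2 in 5 of the 6 fits that left out 1 array (all but the one without wild-type replicate 2) and 2 with equal array medians. In 3 of the 10 (ptr-4, ptr-15 and ptr-18) every mutant value lay below every wild-type value, as in 4.7% of all genes.

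**Figure D1:**
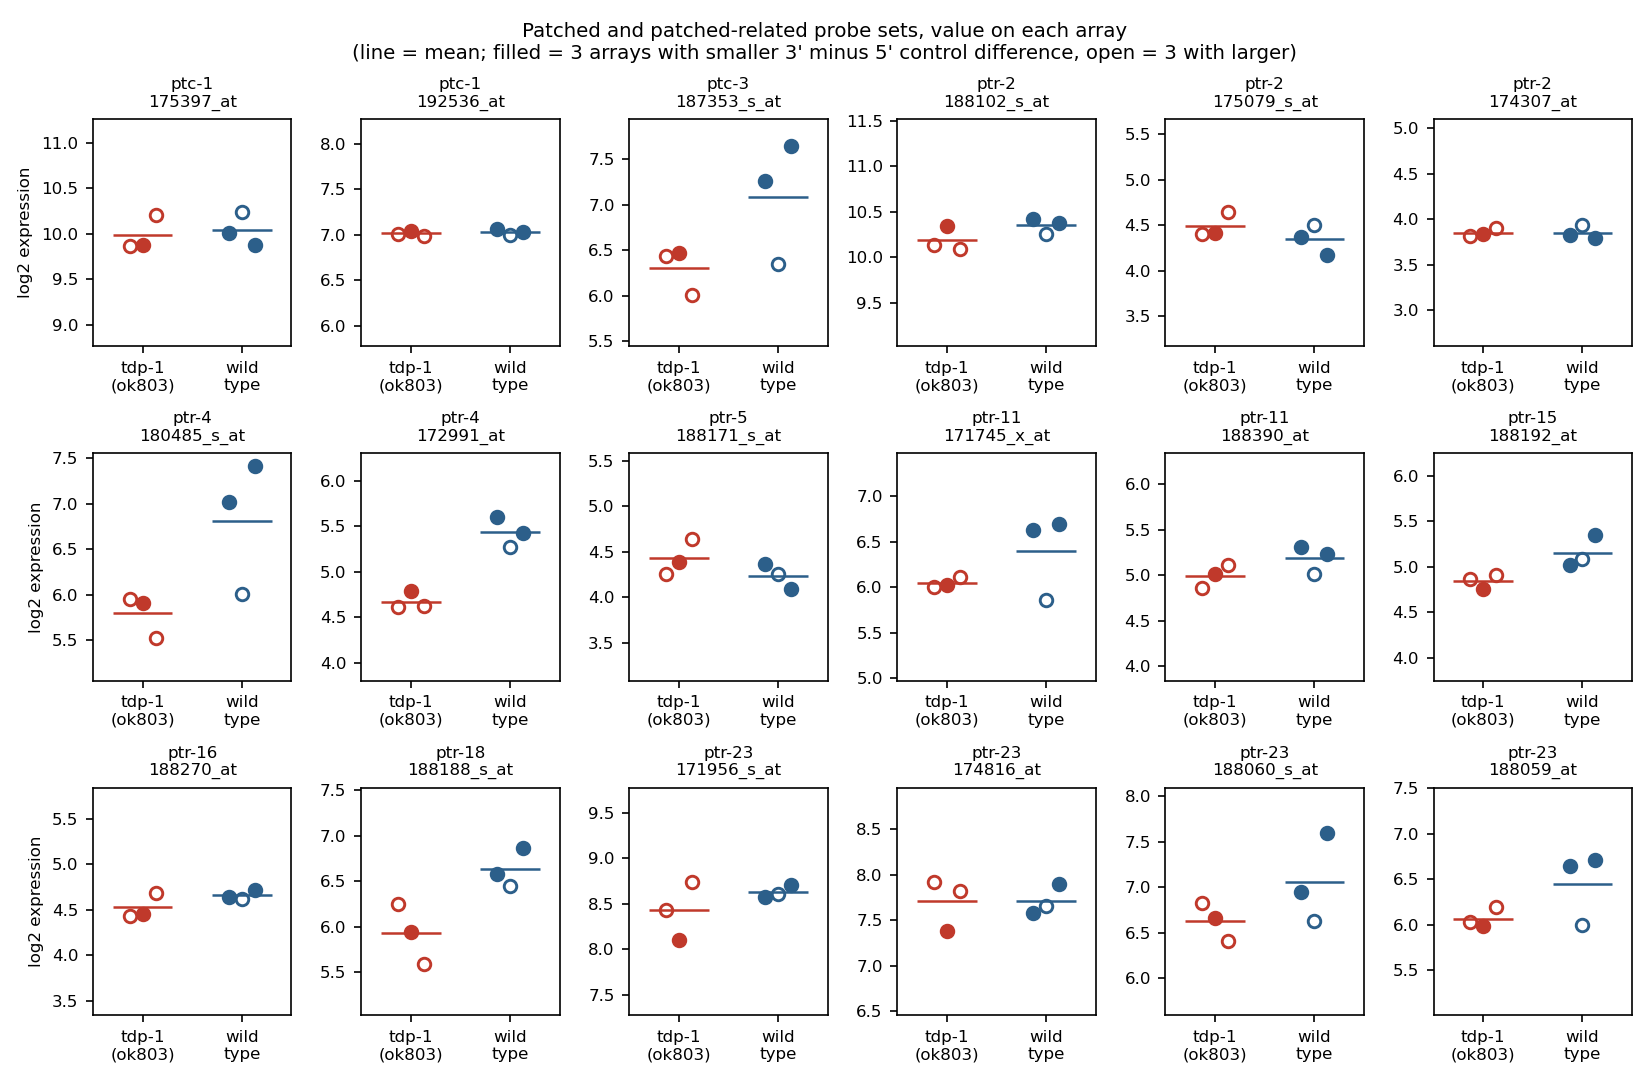
Log2 expression of the 18 probe sets on each array, with 1 panel per probe set, tdp-1(ok803) in red on the left and wild type in blue on the right of each panel, lines at the group means and the same span of 2.5 log2 units on every vertical axis. Filled points are the 3 arrays with the smaller 3' minus 5' control difference and open points the 3 with the larger. The groups are apart for both ptr-4 probe sets, ptr-15 and ptr-18, while the open wild-type point of ptc-3 lies among the mutant points.

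The patched-related receptor gene ptr-4 (C45B2.7) is needed for moulting and for the apical extracellular matrix that precedes the cuticle. It had 2 probe sets. The brighter one read 5.95, 5.91 and 5.53 in tdp-1(ok803) replicates 1 to 3, against 7.02, 6.004 and 7.41 in wild-type replicates 1 to 3. The groups did not overlap, but wild-type replicate 2 lay just above the highest mutant array, while the other wild-type arrays stood more than 1 unit above it. The means were 5.80 ± 0.24 in the mutant and 6.81 ± 0.73 in wild type (SD, n = 3 each), a difference of -1.02 ± 0.33 (SE), or 2.02-fold lower (limma unadjusted p = 0.0159, adjusted p = 0.553). Without wild-type replicate 2 the difference was -1.42 and passed (limma adjusted p = 0.0374). Without wild-type replicate 3 it was -0.72 (limma adjusted p = 0.936), without wild-type replicate 1 it was -0.91 and without mutant replicate 3 it was -0.88 (limma adjusted p = 1 for both). The covariate brought it to -0.59 (limma adjusted p = 0.374).

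The dimmer ptr-4 probe set showed the same direction with less spread. It read 4.61, 4.78 and 4.62 in tdp-1(ok803), against 5.60, 5.28 and 5.43 in wild type. The mutant values lay below the array medians, and whether they were above background was not assessed here. The lowest wild-type array was above the highest mutant array by more than either group's range. Its difference was -0.76 ± 0.13 (SE), with a 95% interval of -1.06 to -0.46, and its unadjusted p of 0.000391 ranked 49 among the 22548 probe sets (limma adjusted p = 0.18). This was the smallest p among the 18 probe sets. With the 3' minus 5' covariate the difference was -0.66 ± 0.12 (SE, limma adjusted p = 0.118). Among the 3 arrays with the smaller control difference it was -0.73, and among the 3 with the larger -0.66. For the brighter probe set those values were -1.31 and -0.27.

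The gene ptc-3 (Y110A2AL.8) encodes 1 of the Patched orthologues proper, an essential protein of the epidermis and other epithelia that has been linked to cholesterol transport. Its probe set read 6.44, 6.47 and 6.01 in tdp-1(ok803), against 7.26, 6.35 and 7.65 in wild type. Wild-type replicate 2 lay inside the mutant range, so the groups overlapped, and the other wild-type arrays lay above all mutant arrays. The means were 6.31 ± 0.26 in the mutant and 7.09 ± 0.67 in wild type (SD, n = 3 each), a difference of -0.78 ± 0.31 (SE, limma adjusted p = 0.681). The size rested on which wild-type arrays were used: it was -1.148 without wild-type replicate 2 and -0.50 without wild-type replicate 3. It was -0.37 with the 3' minus 5' covariate (limma adjusted p = 0.525). On the 3 arrays with the smaller control difference it was -0.99, and on the 3 with the larger -0.12. How far RNA integrity or labelling takes part in the ptc-3 and brighter ptr-4 values was not tested.

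The other Patched orthologue, ptc-1 (ZK675.1), acts in the germ line, where it is needed for cytokinesis. Its brighter probe set read 9.86, 9.88 and 10.21 in tdp-1(ok803), against 10.002, 10.24 and 9.87 in wild type. The groups interleaved, with a difference of -0.06 and a 95% interval of -0.41 to 0.29. The dimmer probe set differed by -0.02, with an interval of -0.26 to 0.23. For ptc-1 the intervals leave out a change of the size estimated for ptc-3, -0.78, but whether ptc-1 and ptc-3 differ from each other was not tested.

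The gene ptr-18 (Y38F1A.3) acts in the epidermis to keep progenitor cells quiescent in newly hatched larvae that have not fed. Its probe set read 6.26, 5.95 and 5.59 in tdp-1(ok803), against 6.59, 6.45 and 6.86 in wild type. All mutant arrays lay below all wild-type arrays. The mutant arrays were spread over 0.67 and the wild-type arrays over 0.41. The means were 5.93 ± 0.33 in the mutant and 6.63 ± 0.21 in wild type (SD, n = 3 each), a difference of -0.70 ± 0.19 (SE) with an interval of -1.149 to -0.26 (limma unadjusted p = 0.00669, adjusted p = 0.425). The difference was -0.58 with the 3' minus 5' covariate, -0.78 on the 3 arrays with the smaller control difference and -0.53 on the 3 with the larger. It ran from -0.87 to -0.53 when single arrays were left out.

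**Figure D2:**
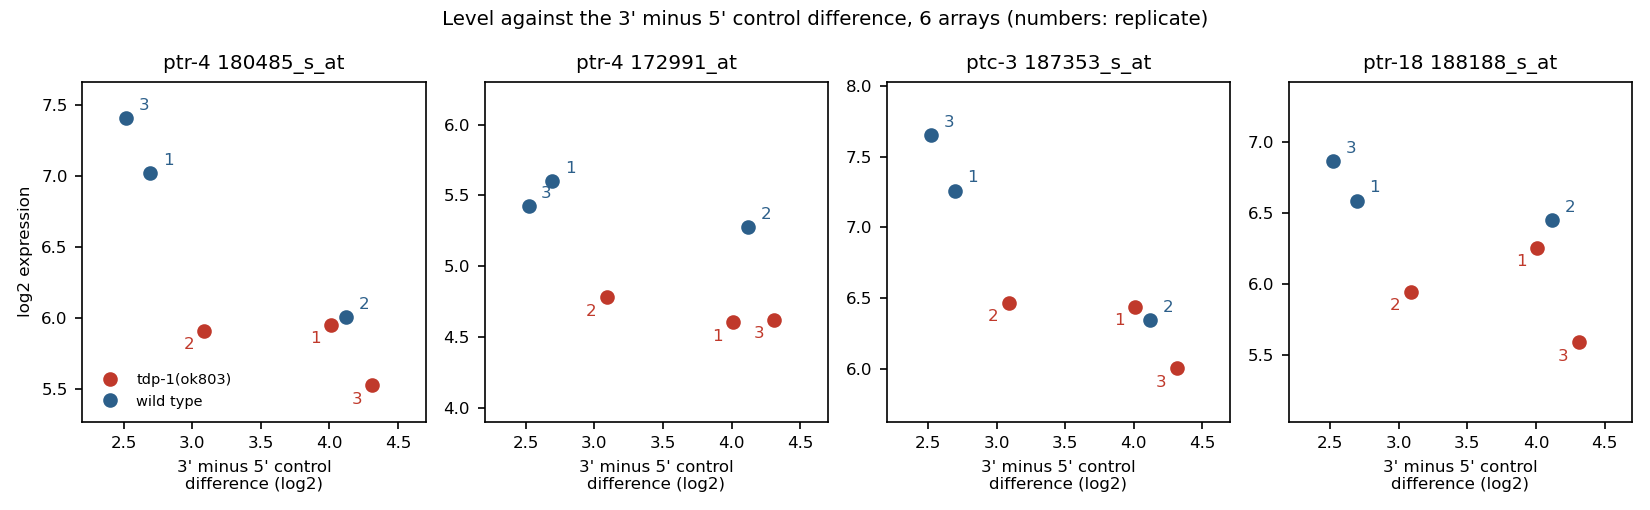
Log2 expression of both ptr-4 probe sets, ptc-3 and ptr-18 on the vertical axis against the 3' minus 5' control difference of each array on the horizontal axis, with tdp-1(ok803) in red, wild type in blue and replicate numbers beside the points. Wild-type replicate 2, at a control difference of 4.12, sits beside the mutant points for ptc-3 and the brighter ptr-4 probe set and above them for the dimmer ptr-4 probe set and ptr-18.

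The gene ptr-15 (T07H8.6) showed a smaller difference. Its probe set read 4.87, 4.76 and 4.91 in tdp-1(ok803), against 5.02, 5.09 and 5.35 in wild type. The groups were apart, by about 0.1 between the nearest arrays. The difference was -0.30 ± 0.13 (SE, limma unadjusted p = 0.0474, adjusted p = 0.712), and it was -0.30 with the covariate, at a slope of -0.01 on the control difference. The values lay below the array medians, and whether they were above background was not assessed here.

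The 3 genes ptr-11, ptr-16 and ptr-23 had overlapping groups on every probe set. For ptr-11 (F56C11.2), the brighter probe set read 6.004, 6.03 and 6.12 in tdp-1(ok803), against 6.63, 5.86 and 6.69 in wild type. Wild-type replicate 2 was the lowest of the 6 arrays, and the difference of -0.35 turned to 0.20 on the 3 arrays with the larger control difference, against -0.63 on the 3 with the smaller. The probe set has the _x_at suffix, by which Affymetrix marks probes that may also bind other transcripts. The second ptr-11 probe set differed by -0.19 (95% interval -0.50 to 0.12). The ptr-16 (T21H3.2) probe set read 4.43, 4.46 and 4.69 in the mutant and 4.64, 4.62 and 4.71 in wild type, a difference of -0.13 (interval -0.41 to 0.14). These ptr-16 values lay below the array medians.

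The gene ptr-23 (ZK270.1) works with the mucin-like protein OSM-8 in the response to osmotic stress. Its 4 probe sets did not give the same picture. The brightest read 8.43, 8.10 and 8.74 in tdp-1(ok803), against 8.57, 8.60 and 8.70 in wild type, a difference of -0.20 with an interval of -0.59 to 0.19. Mutant replicates 2 and 3 were the lowest and the highest of the 6 arrays there. The next brightest differed by -0.0021, and the other 2 by -0.42 and -0.38 (limma adjusted p = 0.823 and 0.788). In those last probe sets wild-type replicates 1 and 3 were above all mutant arrays and wild-type replicate 2 was not. On the 3 arrays with the smaller control difference the 4 probe sets differed by -0.53, -0.35, -0.61 and -0.70 in order of brightness, and on the 3 with the larger by -0.02, 0.22, -0.0097 and 0.11.

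The remaining genes, ptr-2 and ptr-5, also had groups that overlapped on every probe set. The brightest ptr-2 (C32E8.8) probe set averaged 10.19 ± 0.13 in tdp-1(ok803) and 10.36 ± 0.09 in wild type (SD, n = 3 each), with an interval for the difference of -0.45 to 0.12. The other ptr-2 probe sets differed by 0.14 and by less than 0.01, at levels of 3.80 to 4.65, well below the array medians. The gene ptr-5 (C53C11.3) was the 1 member with a higher mean in the mutant, at 4.25, 4.39 and 4.64, against 4.37, 4.25 and 4.09 in wild type. These ranges overlapped, and the difference of 0.19 had an interval of -0.14 to 0.52. In the fit with array weights, described in the closing section, the difference was -0.05. The ptr-5 values lay below the array medians, and whether they were above background was not assessed here.

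**Figure D3:**
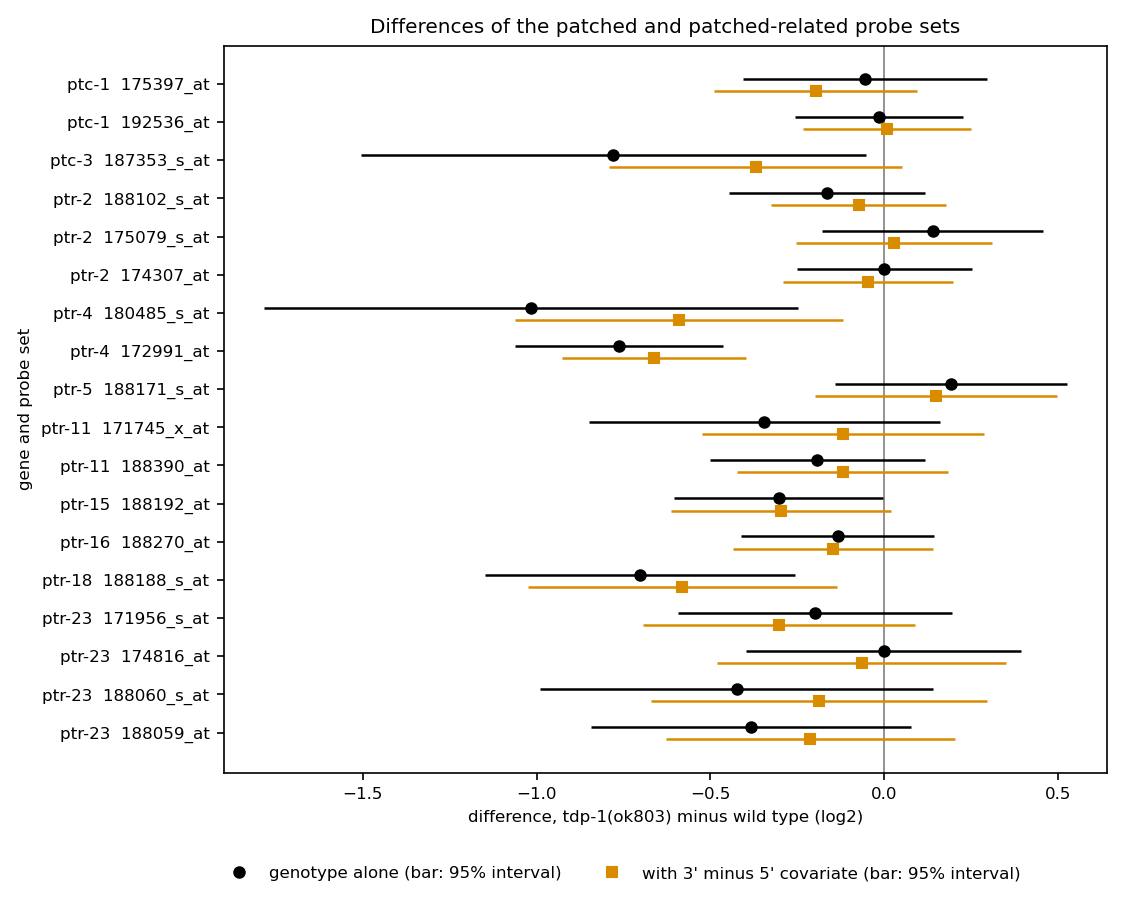
Difference between tdp-1(ok803) and wild type (log2, mutant minus wild type) for the 18 probe sets, with 95% intervals from limma, for genotype alone (black circles) and with the 3' minus 5' control difference as a covariate (orange squares). The intervals of both ptr-4 probe sets and ptr-18 lie below 0 in both fits, and those of ptc-3 and ptr-15 reach 0 with the covariate.

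Genes with more than 1 probe set show how far the measurements of a gene held together. Of 5 such genes, both ptr-4 probe sets, both ptr-11 and both ptc-1 shared a direction. The 3 ptr-2 probe sets did not, nor did the size hold over the 4 of ptr-23. Counted as probe sets, 15 of 18 had a lower mean in the mutant, where 49.5% of all probe sets did, and 5 of 18 were lower at an unadjusted p under 0.05, where 3.38% were. None passed at an adjusted p under 0.05 (0.0577% of all probe sets did), and the unmoderated linear model gave 0 passing members and 1 at an unadjusted p under 0.05.

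For ptr-4, ptc-3 and ptr-11 the wild-type arrays differed among themselves more than the mutant arrays did, and for ptr-18 they differed less. Averaged over the 10 genes after centring each on its own mean, the arrays stood at -0.16, -0.20 and -0.17 in tdp-1(ok803) and at 0.23, -0.05 and 0.35 in wild type. Wild-type replicate 2 was thus the nearest to the mutant arrays. It was the lowest wild-type array in 6 of the 10 genes, beside 30.5% of all genes. Wild-type replicates 1 and 3 both lay above all mutant arrays in 6 of the 10, beside 12.5% of all genes. The median difference of the 10 was -0.48 on the 3 arrays with the smaller 3' minus 5' difference, with 9 lower, and -0.13 on the 3 with the larger, with 8 lower. For all genes these medians were 0.0066 and -0.02. With the covariate the median of the 10 was -0.25, and 2 (ptr-4 and ptr-18) were lower at an unadjusted p under 0.05, where 5.81% of all genes were.

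The genes whose array-by-array pattern was most like the mean of the 10 were found by the root mean square distance between centred log2 values over the 6 arrays, among 17108 other genes. The nearest were C50F2.7, atrn-1, eff-1, H17B01.2, abu-12 and mlt-7, at distances of 0.0473 to 0.0564. The 10 genes themselves lay at 0.11 (ptr-15) to 0.47 (ptr-4) from their own mean. The gene eff-1 encodes the protein that fuses epidermal cells and mlt-7 a peroxidase needed in the moulting cuticle. Roles are not given for the rest, and whether the 6 share one was not tested. All 6 nearest genes had a lower mean in the mutant, by -0.41 (abu-12) to -0.30 (atrn-1). Differences of that size follow from how the genes were picked and are no separate result.

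The other patched-related receptor genes had differences from -0.76 to 0.16. Of 16 such genes measured, daf-6 included, 14 had a lower mean in tdp-1(ok803). At an unadjusted p under 0.05, 3 were lower (ptr-12, ptr-6 and ptr-1), beside 3.2% of all genes, and limma called 0 at an adjusted p under 0.05. Their median was -0.14, beside -0.25 for the 10 genes, and with the covariate these were -0.22 and -0.25. Without mutant replicate 1 they were -0.24 and -0.26, and without mutant replicate 3 they were -0.10 and -0.35. The difference between the 2 lists was not tested. The smallest p belonged to ptr-12, at 5.62, 5.43 and 5.28 in the mutant, against 5.94, 5.89 and 6.003 in wild type (difference -0.50, limma adjusted p = 0.394). The gene ptr-6 differed by -0.76 and ptr-1 by -0.65 (limma adjusted p = 0.513 and 0.645). Over the 26 genes of both lists, 23 had a lower mean, beside 47% of all genes. In 6 every mutant array lay below every wild-type array, beside 4.7% of all genes, and in 0 above, beside 7.41%.

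Among related membrane proteins with a sterol-sensing domain, the Dispatched-like gene che-14, which acts in apical secretion from the epidermis, had the largest difference of its list. It read 5.03, 5.02 and 5.37 in tdp-1(ok803), against 6.26, 5.68 and 6.09 in wild type, with groups that did not overlap (difference -0.87 ± 0.18 SE, limma adjusted p = 0.255). The list of 6 had 4 genes lower, beside 47% of all genes, a median of -0.12, and 0 called by limma. At an unadjusted p under 0.05, che-14 was the 1 that was lower, beside 3.2% of all genes. With the covariate the median was -0.10, with 3 lower. The genes ptd-2 and hmgr-1 differed by -0.21 and -0.29 and overlapped between genotypes.

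The hedgehog-related ligand genes, whose products are candidate partners of these receptors, had 38 of 54 members lower, beside 47% of all genes, and a median of -0.12. Limma called 0 at an adjusted p under 0.05, while 11 were lower and 0 higher at an unadjusted p under 0.05, where 3.2% and 4.05% of all genes were. With 1 array left out, 6 (without wild-type replicate 1) to 18 (without wild-type replicate 2) had an unadjusted p under 0.05, and the median ran from -0.18 to -0.04 over the same 2 fits. With the covariate the median was -0.16, and 13 were lower at an unadjusted p under 0.05, where 5.81% of all genes were. The smallest p belonged to wrt-2 at -0.78, grd-10 at -0.70 and wrt-1 at -1.18 (limma adjusted p = 0.163, 0.232 and 0.281). The count of calls was 3 without wild-type replicate 2. Of 15 moult regulators, 12 had a lower mean, beside 47% of all genes, with a median of -0.15. Limma called 0, while 2 were lower and 1 higher at an unadjusted p under 0.05, beside 3.2% and 4.05% of all genes. With the covariate the median was -0.21, with 5 lower and 1 higher at that threshold, beside 995 and 867 of 17118 genes. The transcription factor genes blmp-1 and myrf-1 differed by -0.61 and -0.40, and grh-1 by 0.27 (limma adjusted p = 0.329, 0.595 and 0.701).

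The genes for proteins of the precuticle and of the moult, made in the same epidermis, had a larger median difference than the receptor genes, which was not tested. Of 16 genes, listed with earlier results of these data known, 15 had a lower mean, beside 47% of all genes. Their median was -0.54, and 10 were lower at an unadjusted p under 0.05, beside 3.2% of all genes. The lipocalin-related gene lpr-3 fell (-1.57, limma adjusted p = 0.0289), the 1 of 16 that passed, beside 0.0643% of all genes. The genes mlt-11 and mlt-9 differed by -1.37 and -1.16 (limma adjusted p = 0.0603 and 0.139). With the covariate the median was -0.44, and lpr-3 passed (limma adjusted p = 0.0156). The lpr-3 call was lost in 5 of the 6 fits that left out 1 array.

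**Figure D4:**
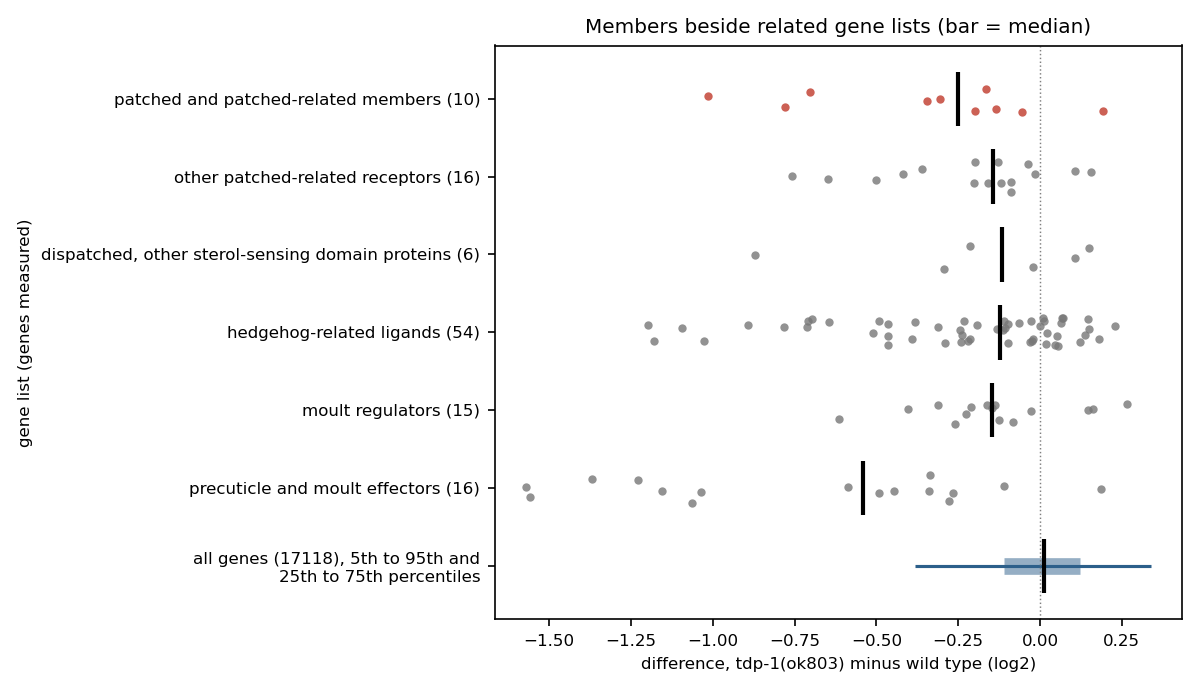
Difference between tdp-1(ok803) and wild type (log2, mutant minus wild type) for each gene of 6 lists, 1 point per gene with vertical jitter and a black bar at the list median, above the 5th to 95th (line) and 25th to 75th (band) percentiles of 17118 genes. The 10 patched and patched-related genes have a median of -0.25 and the precuticle and moult effectors one of -0.54, beside 0.013 for all genes.

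Marker lists of the tissues in a whole worm were set beside these values. The mean of 8 epidermis markers was lower on every mutant array, at 7.30 to 7.36, than on every wild-type array, at 7.47 to 7.55, and their summed level was 11.15 to 11.29 in the mutant and 11.34 to 11.41 in wild type on the log2 scale. The list did not move as 1: the cuticle collagen gene rol-6 differed by -1.10 and dpy-7 by -0.59, while the epidermal transcription factor gene elt-3 differed by 0.62. The genes elt-1, ceh-16, egl-18, lin-26 and elt-6 differed less, by -0.17, -0.13, 0.05, -0.03 and 0.02. Means overlapped between the genotypes for adult yolk and adult cuticle, germline, sperm, intestine, muscle, neuron and glia markers. Of 8 neuron markers, 5 had a lower and 3 a higher mean in the mutant, and 4 were lower and 0 higher at an unadjusted p under 0.05, beside 3.2% and 4.05% of all genes. With the covariate 2 were lower and 1 higher at that threshold, beside 995 and 867 of 17118 genes. In 3 of the 8 (rab-3 at -0.71, egl-3 at -0.44 and snt-1 at -0.49) every mutant array lay below every wild-type array, beside 4.7% of all genes. In 1, snb-1 at 0.30, every mutant array lay above, beside 7.41%. The list had means of 6.96 to 7.11 in the mutant and 7.09 to 7.38 in wild type. The part of epidermal or neuronal RNA, or of the mix of stages, in the receptor values was not tested.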

How the data were processed

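The authors deposited a table of log2 values with a column for each array. The submitters' processing notes list RMA and Partek, without version or probe-level settings. The log2 scale was read from the values. The labels' protocols give TRIzol and RNeasy extraction and biotin labelling by 3' IVT Express for the Affymetrix C. elegans array. The 77 control probe sets were not tested. Of 22548 probe sets, 20766 carried 1 symbol in the platform annotation, brought up to date from the WBcel235 table by gene ID (65 unmatched), 887 carried several and 895 were not listed. The brightest probe set stood for a gene.

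Genotypes were compared with limma 3.58.1 under R 4.3.3 (eBayes moderation, genotype the sole term, two-sided, Benjamini-Hochberg over all probe sets, threshold 0.05), and intervals are 95%. The code was checked on simulated data. Members and lists were chosen with earlier results of these data known. All members are named, with the 3 smallest p of each related list and the 6 genes nearest in pattern. ptr-25, the probe set shared by ptc-2 and ptc-1, and the marker genes given singly were chosen after their values were seen. The design text calls the samples biological replicates. Figures used matplotlib 3.10.9. Alternatives are in the closing section, those within 3 arrays chosen after seeing the data.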

Additional observations from a re-analysis of the deposited data

How the results depend on the processing

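The count of 0 called members held under an unmoderated model, eBayes with trend and robust, quantile normalization, equal array medians, a filter below the 30th percentile, the replicate block, the 3' minus 5' covariate, gene means and a threshold of 0.01. It was 5 with array weights and 0 to 1 with an array left out (1 where it was wild-type replicate 2). The weights, 7.91 for wild-type replicate 1 and 4.16 for mutant replicate 1 against 0.27 to 0.54 elsewhere, rest the fit largely on 2 arrays, and it called 6291 probe sets. With them 5 other patched-related, 3 sterol-sensing, 19 hedgehog-related, 5 moult regulator and 14 precuticle genes passed. Hedgehog-related calls ran from 0 to 3 and precuticle calls from 0 to 4 with an array left out; precuticle calls were 2 with trend and robust, and 0 with the unmoderated model, equal medians and the block. The cause was not tested. The member median ran from -0.30 to -0.21 over the other settings, -0.35 to -0.18 with an array left out, and was -0.48 on the 3 arrays with the smaller control difference. Calls over all probe sets were 13, against 17 with trend and robust or quantile normalization, 7 with equal medians, 0 unmoderated, 25 with the covariate and 4 to 97 with an array left out. Deviations from the group means gave same-number correlations of 0.0499, -0.61 and -0.46 for replicates 1 to 3, and only mutant replicate 1 correlated best with its own number. The highest correlation, 0.60, joined wild-type replicate 2 and mutant replicate 3, both with a larger 3' minus 5' difference. A weaker pairing by number could be masked by that difference, so the correlations do not settle it. The replicate block left 5 calls over all probe sets and 2 members at an unadjusted p under 0.05, against 4. Signal over background was not assessed.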

Other observations

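The brighter ptr-11 probe set and the dimmest ptr-23 probe set, of different genes, had nearly the same pattern: after centring, their values differed by at most 0.0953 on any of the 6 arrays, the closest pair among the 18 probe sets. Whether they bind a shared transcript was not tested.

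A further patched-related gene, ptr-25 (F43D9.1), which is in none of the lists, read 5.89, 5.37 and 5.45 in tdp-1(ok803), against 5.90, 5.83 and 5.44 in wild type, and differed by -0.15 (limma adjusted p = 0.92). The probe set annotated to both ptc-2, a pseudogene, and ptc-1 averaged 4.37 ± 0.15 in tdp-1(ok803) and 4.38 ± 0.35 in wild type (SD, n = 3 each).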
